A study of Homo sapiens with 2 samples.

Results

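Integrins, focal adhesion proteins, the actin contractile apparatus and caveolins form the machinery by which an adherent cell grips its matrix and pulls on it. The set described here holds 47 genes, chosen by name: 21 integrin subunits, 11 adaptors and kinases of the focal adhesion, 13 actin-binding and contractile genes and 2 caveolins. A gene was counted as measured where a probe of the array carried its symbol and had a value. Of the 47 genes, 43 were named on the array among 12445 named genes, and 39 had a value on at least 1 array. ITGA1, TLN1, ACTA2 and TPM4 had no named probe, and ITGA8, ITGA9, ITGB6 and ITGB8 had a probe but no value on either array. All 39 had a value on the depletion array. On the transfection array 36 had one, without ITGA11, ITGB2 and CNN1.

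The values came from 2 arrays of 2 colours, with total RNA of 2 established human mesothelioma cell lines. On the depletion array, ACC-MESO1 cells in which CD26 had been depleted (labelled Cy3) were set against control ACC-MESO1 cells (Cy5). On the transfection array, MSTO-211H cells given CD26 in a pLNCX2 vector (Cy3) were set against control MSTO-211H cells (Cy5). The depleting agent is an siRNA by the design text and an shRNA by the treatment protocol; neither the treatment of the controls nor whether the cells were clones or pools is stated. There was 1 array per comparison and no dye swap, so no value has a replicate error and no test of the conditions was possible. CD26 is a dipeptidyl peptidase of the cell surface that also binds matrix proteins, and the study asked how gene expression in mesothelioma cells depends on it.

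Integrins are receptors of 1 alpha and 1 beta subunit that bind matrix proteins outside the cell. Inside it, talin, vinculin, paxillin, the kinases FAK (PTK2) and SRC and the complex of ILK with parvins connect them to actin filaments. Alpha-actinins and filamins cross-link these filaments, tropomyosins, calponins and caldesmon line them, and myosin with its regulatory light chain pulls on them. Many of the contractile genes are textbook targets of the transcription factor SRF and are used as markers of smooth muscle and myofibroblast differentiation. Caveolins coat small pits of the plasma membrane that flatten under tension.

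All values below are log2 ratios of the manipulated over the control cells, as deposited, with the median of each array at 0 over its probes; probes of a gene were averaged. A size of at least 1, which is 2-fold, was used as the threshold. The targeted gene, DPP4, had a log2 ratio of -3.92 in the depleted and 5.51 in the transfected cells, in the direction of the labels. The only repeat measurement was the spread between probes of a gene, with a pooled SD of 0.42 over 566 genes after depletion and 0.45 over 471 genes after transfection. Ribosomal protein genes had medians of -0.35 and -0.25 on these arrays. Centring on them would raise every value by 0.35 and 0.25, so negative values closer to 0 than that would change sign. The ratios give no level, so the lines could not be checked against mesothelial markers. Of 12 such markers 11 had a value on the depletion array, from -0.37 (WT1) to 1.38 (ITLN1), and 10 on the transfection array, from -1.31 (MSLN) to 0.66 (UPK3B).

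After CD26 depletion in ACC-MESO1 cells, 6 of the 39 measured members were past 2-fold upwards and 0 downwards, beside 3.31% and 1.56% of all 10347 named genes of that array. The 6 were the contractile genes TAGLN, TPM1, MYL9 and ACTN1, the integrin subunit ITGA5 and the adaptor gene VCL. Apart from TPM1, each of the 6 rests on a single probe. The median of the 39 members was 0.23, against 0.01 for all genes, and 28 of the 39 were above 0, where 51.3% of all genes were. After CD26 transfection in MSTO-211H cells, 0 of 36 members were past 2-fold upwards and 1, ITGA7, downwards, beside 4.09% and 1.37% of all 9359 genes. When that array was centred on ribosomal protein genes, the split was 1 higher (ITGB3) and 0 lower. Of all 9359 genes, 685 (7.32%) then passed 2-fold upwards and 53 downwards. The median of the members there was 0.03, against 0.01 for all genes, and 19 of the 36 were above 0, beside 50.7%. At 0.5 or more in size were 18 of 39 members after depletion and 8 of 36 after transfection, beside 22.6% and 22.5% of all genes. At 1.5 or more were 1 (TAGLN) and 0, beside 1.42% and 1.74%. In bulk RNA, a ratio cannot separate a difference in every cell from a difference in the share of cells that carry the transcript.

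**Figure D1:**
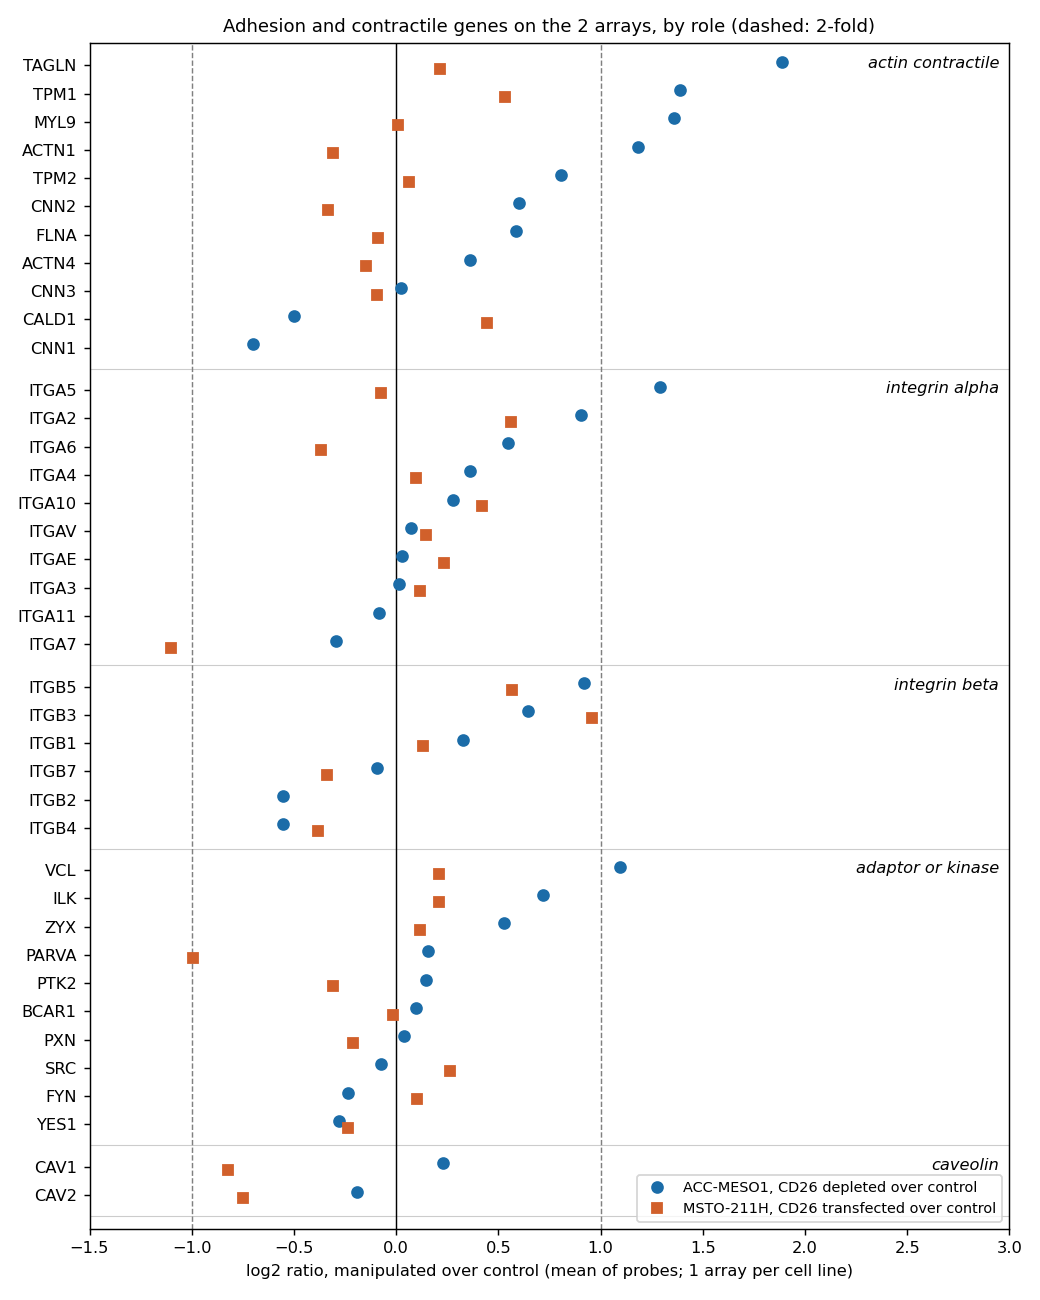
log2 ratios of the 39 members with a value, grouped by role and ordered by the depletion array within each role. Circles are CD26-depleted over control ACC-MESO1 cells and squares CD26-transfected over control MSTO-211H cells, each from 1 array, and dashed lines mark 2-fold. The contractile genes spread to the right on the depletion array, with TAGLN at 1.89, and lie between -0.33 and 0.53 on the transfection array.

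The contractile genes were the role with the highest median on the depletion array. Of 13 genes 11 had a value, with a median of 0.60. Of the 11, 4 were at least 2-fold higher and 7 were at 0.5 or above, where 12.8% of all genes were. TAGLN, encoding the actin-binding protein transgelin (SM22), was at 1.89 in the depleted cells, a 3.70-fold ratio and rank 48 from the top of 10347 genes. Its log2 ratio in the transfected cells was 0.22, within the spread between probes of a gene. MYL9, the regulatory light chain of non-muscle and smooth muscle myosin, was at 1.36 (2.56-fold) in the depleted and at 0.01 in the transfected cells. ACTN1, an alpha-actinin that cross-links actin filaments at adhesions, was at 1.18 (2.27-fold) and at -0.31. Its paralog ACTN4 was at 0.36 and -0.15. In all of these pairs the larger value was that of the depleted cells.

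The tropomyosins stabilise actin filaments, and the measured genes of the family differed in the depleted cells. TPM1 had a mean of 1.39 over 3 probes, at 1.89, 1.61 and 0.66. In the transfected cells the same probes of TPM1 were at 0.72, 0.79 and 0.08, with a mean of 0.53. The probe with the lowest value was the same on both arrays. TPM1 makes many transcripts by alternative promoters and exons, and which of them each probe detects is not known here. TPM2 had probes at 1.03 and 0.59 on the depletion array, with a mean of 0.81 short of 2-fold, and at 0.12 and -0.00084 on the transfection array. TPM3, a tropomyosin of non-muscle cells and slow muscle outside the 47 genes, had a mean of -0.10 over 3 probes after depletion. Its mean of -0.08 after transfection rests on probes on either side of 0, at 0.17 and -0.33. Because tropomyosin genes are close in sequence, probes of one may also pick up another.

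The calponins, which bind actin and dampen myosin activity, differed among themselves. CNN2, the calponin of non-muscle cells, was at 0.60 in the depleted and -0.33 in the transfected cells. CNN3 was close to the array median on both, at 0.02 and -0.09. CNN1, the calponin of differentiated smooth muscle, was the lowest measured member of the whole set on the depletion array, at -0.70, and had no value on the transfection array. CALD1, which encodes caldesmon, had probes on either side of 0 in the depleted cells, at -1.13 and 0.13, and only the second had a value in the transfected cells, at 0.45. The mean of CALD1 on the depletion array, -0.50, therefore rests on probes that disagree. FLNA, a filamin that holds crossing actin filaments together, was at 0.59 and -0.09.

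Markers of smooth muscle were sparsely measured. Of 8 such markers, of which CNN1 is also a member, 4 had a value on the depletion array, from -0.70 (CNN1) to 0.54 (LMOD1), with SMTN at 0.24 and DES at 0.01. In the transfected cells 3 had one, with SYNPO2 2.82-fold higher, DES at 0.06 and SMTN at -0.01. Whether cells of another type contributed was not tested. Markers of leukocytes lay between -0.13 and 0.47 on the depletion array (4 of 9 with a value), and markers of endothelial cells between -0.22 and 0.29 (6 of 8), with no member of either list past 2-fold there. In the transfected cells leukocyte markers lay between CD68 at -0.89 and CD3E at 1.88 (5 of 9 with a value), and endothelial markers between ERG at -0.51 and CLDN5 at 0.57 (5 of 8).

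**Figure D2:**
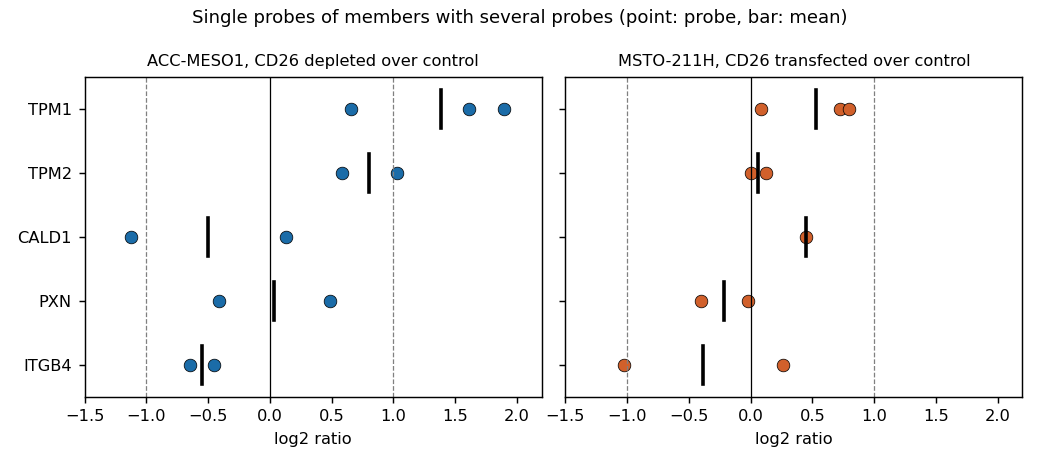
log2 ratios of the single probes of the 5 members with values from several probes, with a bar at the mean, on the depletion array (left) and the transfection array (right). All 3 probes of TPM1 lie above 0 on both arrays, while the probes of CALD1 and PXN on the left and of ITGB4 on the right fall far apart.

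Among the alpha integrins, 10 of 13 had a value on the depletion array, with a median of 0.17 and 8 above 0. ITGA5, the alpha subunit of the fibronectin receptor, was at 1.29 in the depleted cells (2.45-fold, rank 193 from the top) and at -0.07 in the transfected cells. Its partner ITGB1, the beta subunit shared by most matrix-binding integrins, was at 0.33 and 0.13. Thus the alpha subunit had the larger ratio of this pair in the depleted cells. ITGA2, which pairs with ITGB1 in a collagen receptor, was at 0.91 and 0.56. ITGA6, a laminin receptor subunit, was at 0.55 and -0.37.

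The partner of ITGA6 in hemidesmosomes, ITGB4, was on the other side of 0 on the depletion array, with probes at -0.65 and -0.46. The probes of ITGB4 on the transfection array were at -1.03 and 0.26, so that the sign depends on the probe. ITGA3, the other major laminin-binding alpha subunit, was close to the median on both arrays, at 0.01 and 0.12. ITGA7, a laminin receptor subunit best known from muscle, was at -0.29 on the depletion array and at -1.10 (2.14-fold lower, rank 89 from the bottom of 9359 genes) on the transfection array. With the ribosomal protein centring ITGA7 no longer reached 2-fold on the transfection array.

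The alpha subunit of the vitronectin receptors, ITGAV, was near 0 on both arrays, at 0.07 and 0.15. Its beta partners ITGB3 and ITGB5 were above it on both arrays. ITGB3 was at 0.64 in the depleted cells and at 0.96 in the transfected cells, the highest value of any member on that array, where 4 of 36 members and 13.1% of all genes were at 0.5 or above. ITGB5 was at 0.92 and 0.57. Both subunits had ratios above 0 in both lines, short of 2-fold, and each rests on a single probe.

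The remaining integrin genes were all short of 2-fold. The collagen receptor subunit ITGA10 was at 0.28 and 0.42. ITGA4, which with ITGB1 binds fibronectin and the endothelial ligand VCAM1, was at 0.36 and 0.10. The subunits of the E-cadherin-binding integrin of lymphocytes were at 0.03 and 0.24 (ITGAE) and at -0.09 and -0.34 (ITGB7). The collagen receptor subunit ITGA11 was at -0.09 and the leukocyte subunit ITGB2 at -0.55 on the depletion array. Over all 6 measured beta subunits the depletion median was 0.12, with 3 above 0. On the transfection array the medians were 0.12 over 9 alpha and 0.13 over 5 beta subunits.

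The adaptors and kinases had a median of 0.12 over 10 measured genes on the depletion array and 0.04 over the same number on the transfection array. VCL, encoding vinculin, which links talin to actin and stiffens adhesions under load, was at 1.09 in the depleted cells (2.13-fold) and at 0.21 in the transfected cells. ILK, the scaffold that binds integrin beta tails, was at 0.72 and 0.21. ZYX, encoding zyxin, a LIM protein of mature adhesions and stress fibres, was at 0.53 and 0.12. These 3 of the 10 measured genes were the members of this role at 0.5 or above on the depletion array, beside 12.8% of all genes. At -0.5 or below were 0 members of the role, beside 9.8% of all genes.

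PARVA, the parvin that ties ILK to actin, did not follow ILK. It was at 0.16 in the depleted cells and at -0.99 (1.99-fold lower) in the transfected cells, just short of the threshold. When every autosome was centred on the median of its genes, PARVA reached the threshold (-1.001). Under that centring 2 of 36 members were at least 2-fold lower, beside 132 of all 9359 genes. The tyrosine kinases of the adhesion were close to the array medians. PTK2 was at 0.15 and -0.31, SRC at -0.07 and 0.27, FYN at -0.23 and 0.10, and YES1 at -0.28 and -0.24. All of these sizes are below the pooled SD between probes. The docking protein gene BCAR1 was at 0.10 and -0.01. PXN, encoding paxillin, had probes at 0.48 and -0.41 on the depletion array and at -0.40 and -0.02 on the transfection array.

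The caveolin genes had ratios below 0 after CD26 transfection, short of 2-fold, and differed in sign after depletion. CAV1, the main structural protein of caveolae, was at -0.82 (1.77-fold lower) on the transfection array and at 0.23 on the depletion array. CAV2, which assembles with it, was at -0.75 (1.68-fold lower) and at -0.19. Their ranks on the transfection array were 257 and 333 from the bottom of 9359 genes. Of all genes on that array 9.4% were at -0.5 or below. Other caveolar genes with a value there were the cavin genes CAVIN2 (-0.63) and CAVIN3 (-0.44) and the membrane-bending protein gene PACSIN2 (-0.0013). On the depletion array CAVIN2 was at 0.62 and CAVIN3 at 0.28, while CAV3 (-0.19), PACSIN2 (-0.12) and EHD2 (-0.09) were below 0. The median of these 5 genes there was -0.09.

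The promoters of members with motifs of regulators named in this pathway are shown because SRF, which binds the CArG box, was at 1.37 on the depletion array, and because TEAD factors, which bind GGAATG, act in cells under tension. The 250 bases before the start of each gene with a promoter sequence were searched, in the RefSeq sequences of GRCh38.p14, on both strands. The CArG box reads alike on both, and the motifs do not overlap. Of 36 members with a promoter sequence, 4 held a CArG box (ITGB6, CNN2, TPM4 and FLNA), beside 1.14% of all 27305 promoters. TAGLN and MYL9 were among the members without a promoter sequence, so whether they hold either motif is not known here. GGAATG was found in 5 members (ITGA10, CALD1, ITGB1, VCL and ITGA5), beside 11.9% of all promoters. Printed are the members past 2-fold that hold a motif, and the measured members with a CArG box, which were chosen after their values were seen. Motif letters are in capitals, and each run is read 5′ to 3′ on the strand of the gene.
VCL, chr10:73997920-73997975, plus strand: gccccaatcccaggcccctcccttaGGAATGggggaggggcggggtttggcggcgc
ITGA5, chr12:54419318-54419373, minus strand: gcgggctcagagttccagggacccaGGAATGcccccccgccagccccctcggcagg
CNN2, chr19:1026494-1026553, plus strand: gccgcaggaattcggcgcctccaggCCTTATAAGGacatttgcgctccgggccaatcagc
FLNA, chrX:154374694-154374753, minus strand: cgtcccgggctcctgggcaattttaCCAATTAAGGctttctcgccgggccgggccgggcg
The first base of the motif lies 171 bases before the start in VCL, 82 in ITGA5, 89 in CNN2 and 94 in FLNA. CNN2 and FLNA, with a CArG box, were at 0.60 and 0.59 on the depletion array, short of 2-fold. ITGB6 and TPM4, which also hold a CArG box, had no value. VCL and ITGA5, with GGAATG, were printed because they were past 2-fold there. Their ratios of 1.09 and 1.29 are therefore no result about the motif. ITGA10, CALD1 and ITGB1, which also hold GGAATG, were at 0.28, -0.50 and 0.33. Whether a motif goes with the ratios was not tested, and a match of letters is no evidence of binding.

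CD26 was lowered in one line and raised in the other, so the ratios of a gene that follows CD26 would differ in sign. Of the 36 members with both values, 15 had opposite signs, beside 46.9% of all 8956 genes with both values. With both arrays centred on ribosomal protein genes 10 had, beside 31.4% of all genes. There were 12 members above 0 after depletion and below 0 after transfection, opposite to DPP4, where 24% of all genes were. They were ITGA5, ITGA6, PXN, PTK2, PARVA, BCAR1, ACTN1, ACTN4, FLNA, CNN2, CNN3 and CAV1. In each of the 12 the smaller of the values was below 0.5 in size, so 0 of 36 reached 0.5 in size on both in this way, beside 1.04% of all genes. SRC, FYN and CALD1 had the sign of DPP4 on both arrays, beside 22.9% of all genes.

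The class with the most members was the one above 0 on both arrays, with 16 of 36, where 26.6% of all genes were. Of these 36 members 28 were above 0 after depletion and 19 after transfection, so unrelated signs would also place many in this class. ITGA2, ITGB3, ITGB5 and TPM1 were at 0.5 or above on both, 4 of 36 beside 2.19% of all genes. Both arrays had Cy3 on the manipulated cells, and a dye effect of a probe would give the same sign on both, so this cannot be told apart from a shared change. Across the 36 members the ratios of the arrays had a Spearman correlation of 0.34, and across all 8956 genes one of 0.08. The points share the probes and the dye orientation, and genes are not independent replicates.

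The roles were also compared between the arrays. In 9 of 10 contractile genes with both values, the value after depletion was higher than that after transfection, with CALD1 the exception and a median difference of 0.80. The same held for 8 of 14 integrin subunits, with a median difference of 0.22, for 7 of 10 adaptors and kinases, with 0.33, and for both caveolins, with 0.81. Over all genes it held for 51.7%, with a median difference of 0.02. The cell lines differ as well as the manipulation, so these differences cannot be assigned to either.

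**Figure D3:**
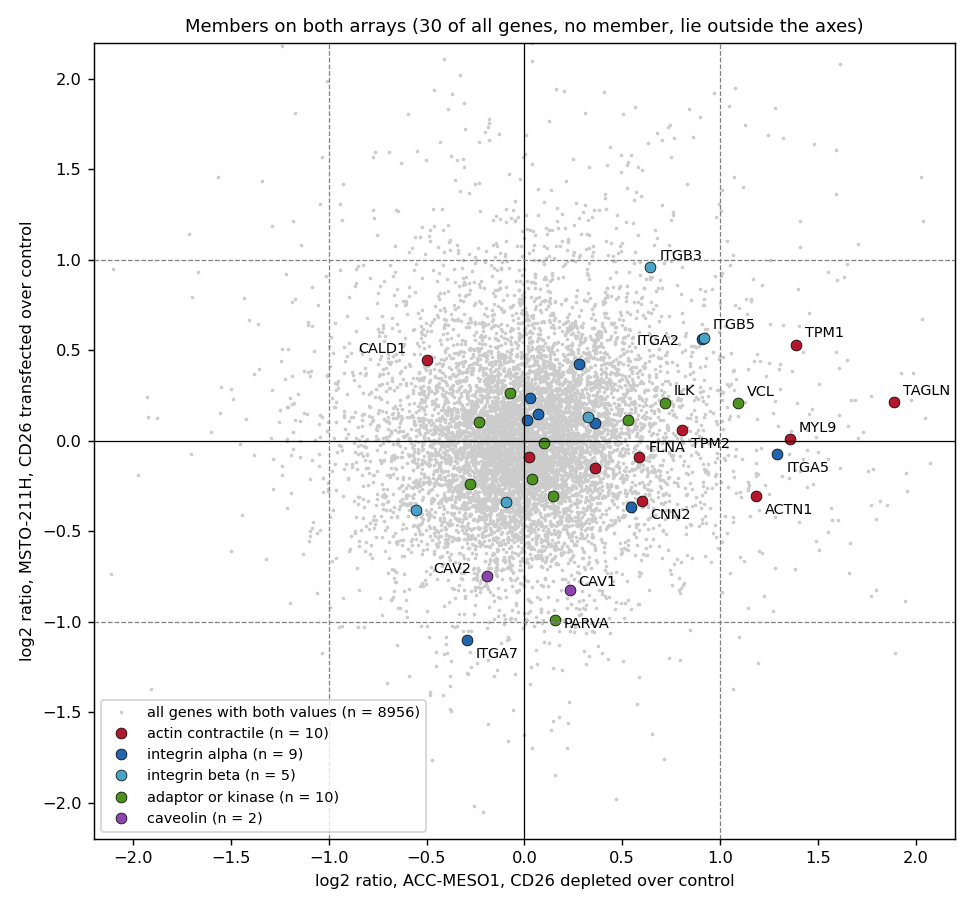
log2 ratio on the depletion array (horizontal) against the transfection array (vertical) for the 36 members with both values, coloured by role, over all 8956 genes with both values in grey; dashed lines mark 2-fold. Contractile genes extend to the right along the horizontal line at 0, ITGA2, ITGB5 and ITGB3 lie in the upper right, and CAV1, CAV2, PARVA and ITGA7 lie at the bottom.

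Other genes of the same machinery, from lists of 115 genes that did not include the members, had a median closer to 0 after depletion than the members as a whole. On the depletion array 69 of them had a value, 2 were past 2-fold upwards and 0 downwards, with a median of 0.08. These shares are close to the 3.31% and 1.56% of all genes. The 2 were SRF (1.37), the transcription factor of many cytoskeletal genes, and TGFB1I1 (1.15), which encodes the paxillin relative Hic-5. With the ribosomal protein centring 7 of the 69 were at least 2-fold higher, beside 8.24% of all genes under that centring. Other actin and myosin genes had a median of 0.24 over 19 genes, with 16 above 0, from CFL2 (-0.71), a cofilin that severs filaments, to FHL2 (0.96), a LIM protein of adhesions. The non-muscle myosin heavy chain genes MYH9 and MYH10 were at 0.39 and 0.03, and the myosin light chain kinase gene MYLK was at 0.44. On the transfection array MYH9 was at -0.27 and MYH10 at 0.69.

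The other adhesion adaptors had a median of 0.07 over 26 genes, from GIT2 (-0.45) to TGFB1I1, and the other integrin subunits lay between ITGA2B (-0.17) and ITGAL (0.15). Other caveolar genes lay between CAV3 (-0.19) and CAVIN2 (0.62).

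On the transfection array 68 of the other genes had a value, with a median of -0.06. At least 2-fold higher were 3, namely SYNPO2 (2.82-fold), an actin-bundling protein gene, PTK2B (log2 ratio 1.13), which encodes the FAK relative PYK2, and PDLIM7 (2.02-fold), a LIM protein gene. ITGAD, a leukocyte integrin subunit, was 2.01-fold lower. These shares, too, are close to those of all genes, 4.09% and 1.37%. SRF was at 0.01 and TGFB1I1 at -0.27 there. The remaining extremes of the lists were LYN (-0.56) among the adaptors, MYOF (-0.31) among actin and myosin genes and ITGAL (0.21) among the integrin subunits.

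**Figure D4:**
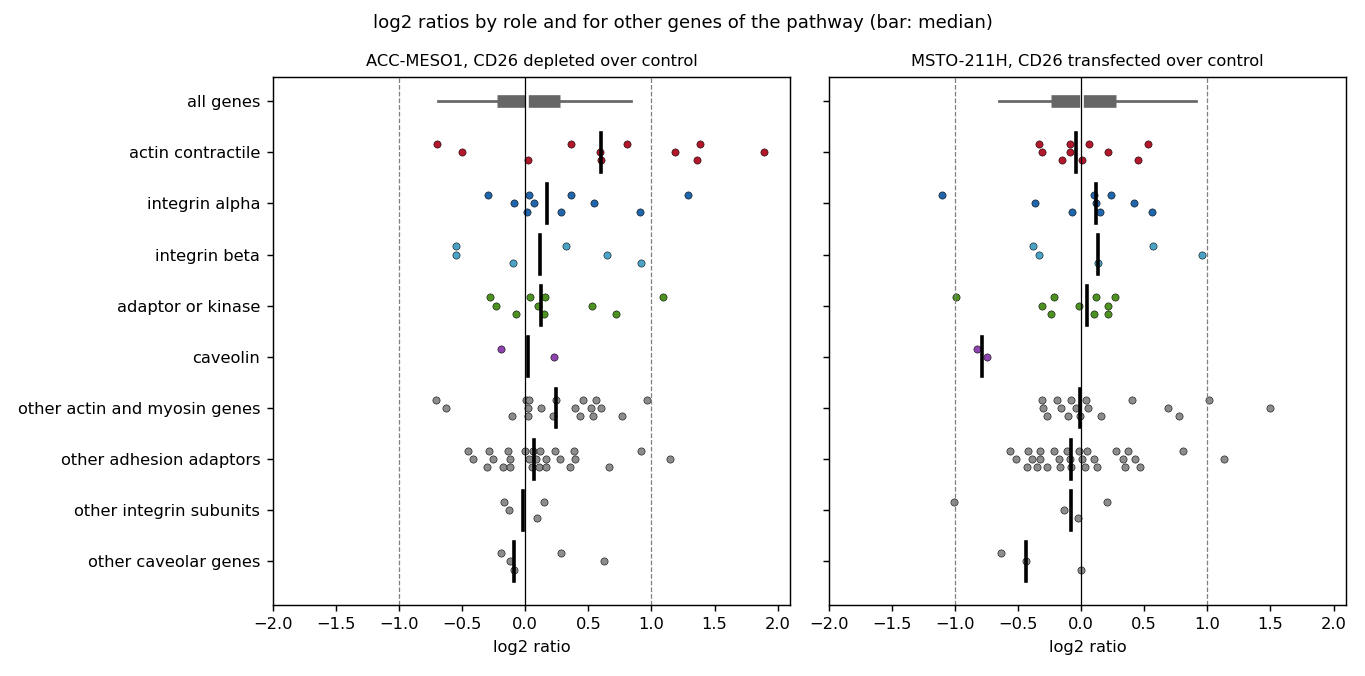
log2 ratios of the members by role (coloured) and of 4 lists of other genes of the pathway (grey) on the depletion array (left) and the transfection array (right). Each point is a gene and each black bar the median of its list; for all genes the thick bar spans the 25th to 75th percentile and the thin line the 5th to 95th percentile. The median of the contractile genes is 0.60 on the left and -0.04 on the right, and that of the caveolins is 0.02 and -0.79.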

How the data were processed

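Per the labels, each sample is a 2-colour array of amplified, dye-coupled RNA, and the authors deposited normalized log2 ratios of manipulated over control cells, centred at a median of 0. The sources used here name no background correction, normalization method, scanner or rule for empty values. Intensities were not used here. The number of arrays, 1 per comparison, limits the precision.

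The table held 24267 probes, of which 13395 had 1 gene symbol, 0 several and 10872 none. Symbols were matched to RefSeq (GRCh38.p14): 10076 were in use, 2285 were older names of 1 gene and were replaced, and 113 that fit several genes were left unaltered. A gene's probes were averaged with pandas 2.3.3, and counting was tested on simulated data. No p-value was computed. Named are all measured members, DPP4, the genes of the other pathway lists past 2-fold and the extremes of each list. TPM3, MYH9, MYH10, MYLK, CAVIN3, PACSIN2, EHD2 and the single marker genes were chosen after their values were seen. One of the other pathway lists, counted in their totals, is not reported here on its own. The members and lists were chosen with earlier results of these data known. Alternatives were other centrings, a common spread, other probe rules, genes on both arrays, symbols as listed, and thresholds of 0.5 and 1.5.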

Additional observations from a re-analysis of the deposited data

How the results depend on the processing

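The 6 members at least 2-fold higher after depletion stayed so under both other centrings, the common spread, the probe of largest absolute ratio, genes on both arrays and symbols as listed; with the probe of smallest absolute ratio, TPM1 did not. Centring on ribosomal protein genes gave 10 members and 7 other pathway genes past 2-fold on the depletion array, where 8.65% of all genes then were, and turned the transfection median of the contractile genes to 0.21. It changed the sign of 7 members on each array. With each autosome centred, 2 members were past 2-fold after transfection, beside 5.35% of all genes. The transfection median of all members (-0.0041) and the depletion median of the caveolins (-0.018) changed sign under that centring. With the probe of largest absolute ratio 2 members were past 2-fold after transfection, ITGA7 and ITGB4, beside 5.89% of all genes. With a common spread 2 other pathway genes were, beside 5.26% of all genes. At a threshold of 0.5, 18 members and 17 other pathway genes passed after depletion, and 8 and 11 after transfection. Of all genes 22.6% and 22.5% did. At 1.5, 1 member (TAGLN) and 0 other pathway genes passed after depletion, and 0 and 0 after transfection. Of all genes 1.42% and 1.74% did. No paired analysis was possible because each comparison had 1 array. Without intensities, dim probes could not be told from bright ones.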

Other observations

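CAV1 and CAV2 are neighbouring genes on chromosome 7, and the protein-coding genes beside them in the RefSeq annotation were looked at after the caveolin values were seen. On the transfection array MET, the receptor of hepatocyte growth factor and the next gene after CAV1, was at -0.72, close to CAV1 (-0.82) and CAV2 (-0.75). The genes that flank these 3 were near 0, with TES, an adhesion protein gene, at 0.01 and CAPZA2, an actin-capping protein gene, at 0.05. Farther out, ST7 was at -0.27, WNT2 at -0.26 and FOXP2 at -0.21. The median of the 401 measured genes of chromosome 7 was -0.17 on that array, and with each autosome centred the caveolin median was -0.61. On the depletion array MET was at -0.67, CAV1 at 0.23, CAV2 at -0.19 and ST7 at 0.65, with a chromosome median of 0.04, so the run of 3 lower genes was seen on the transfection array only among these arrays.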
